A study of Homo sapiens with 4 samples.

Results

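NF-kappaB is a family of transcription factors that pair into dimers and are held inactive in the cytoplasm by IkB proteins. On stimulation the IKK kinase complex phosphorylates IkB, which is then degraded, and the freed dimers enter the nucleus and switch on genes of inflammation and survival. Several of those genes encode inhibitors of the pathway itself, among them the IkB protein NFKBIA and the ubiquitin-editing enzyme A20, which is the product of TNFAIP3. In intestinal epithelium A20 is known as a brake on inflammatory signalling and on cell death caused by TNF.

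The 10 genes described here were taken by symbol from a table of 35820 genes measured by RNA sequencing in HCT116, a human colon carcinoma line. They are TNFAIP3 and its partner TNIP1, the IkB genes NFKBIA, NFKBIB and NFKBIE, the subunit genes NFKB1, NFKB2, RELA and RELB, and IKBKB, a kinase of the IKK complex. TNFAIP3 was selected on its count, which was 0 in both wild-type libraries, so its difference between the groups is a description and carries no test. The other 9 genes were chosen by their role in the pathway.

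The knockout (KO) group was 2 libraries of HCT116 clone E2-4, in which CRISPR had been aimed at exon 2 of TOP3B, and the wild-type (WT) group was 2 libraries of unedited HCT116. TOP3B encodes a topoisomerase of DNA and RNA, and the study was about its part in R-loops and transcription. The labels name no treatment, and so no stimulus of NF-kappaB, in either group. With 1 KO clone, clone and genotype cannot be told apart, and no label tells if replicates were separate cultures.

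The KO libraries held 10450048 and 16143634 estimated counts in genes, against 15141919 and 11750516 in the WT libraries. Levels are given as CPM, which are counts scaled to a common library size and corrected for library composition. TOP3B transcript had 43.9 and 54.7 CPM in the KO libraries, against 57.1 and 66.5 CPM in the WT libraries, and a transcript level does not check an edit of this kind. Of 11 colon epithelial markers with a row in the table, 8 were detected, with EPCAM, KRT8, KRT18, KRT19 and CDH1 in every library, while KRT20, CEACAM5 and GPA33 were at 0 in all 4. CDX2 had 56 and 0 counts in the KO libraries, against 46 and 44 in the WT libraries. LGR5 and VIL1 had at most 3 counts in any library. CDH1 was lower in KO with no overlap (log2 fold change -0.76; edgeR adjusted p = 0.420). The summed level of the 11 markers was 1522 and 1452 CPM in the KO libraries, against 2584 and 2117 CPM in the WT libraries, most of it KRT19. KRT19 had a log2 fold change of -0.80 and was called by DESeq2 (adjusted p = 0.00298) but not by edgeR (adjusted p = 0.293), and the part of this difference in the other results was not tested. Across all 12269 genes that passed the filter on low counts, edgeR's quasi-likelihood test called 1 gene, which is 0.00815% of those tested.

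Since several of the 10 genes are known targets of the factor they regulate, their promoters were read first. RefSeq's promoter table (GRCh38.p14) held entries for 7 of the 10 genes, and the 250 bases before each start were searched for the kappaB consensus, a 10-base motif of GG, 2 purines, 2 bases of any kind, 2 pyrimidines and CC that reads the same on both strands. A match was present for 6 of the 7 genes, against 14.5% of all 27305 genes in that table. Counted by start site, 7 of 13 entries held a match, against 12.3% of all 35116 entries. Several of these genes were already known as targets, so the share with a match is a description and carries no test. A match is a run of letters, not a measured binding site, and none of the files here measures binding. The stretches before the starts of TNFAIP3 (chr6:137867009-137867258, plus strand) and NFKBIA (chr14:35404750-35404999, minus strand) are shown in full, because these 2 inhibitor genes lay on opposite sides of WT in the KO libraries. Capitals mark the kappaB matches, at 67 and 55 bases before the start in TNFAIP3 and at 81 bases before it in NFKBIA.
TNFAIP3: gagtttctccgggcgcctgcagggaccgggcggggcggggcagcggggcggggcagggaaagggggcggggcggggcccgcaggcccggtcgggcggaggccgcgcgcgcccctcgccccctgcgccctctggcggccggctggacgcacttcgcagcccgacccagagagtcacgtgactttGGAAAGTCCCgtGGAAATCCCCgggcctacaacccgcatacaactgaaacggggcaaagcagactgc
NFKBIA: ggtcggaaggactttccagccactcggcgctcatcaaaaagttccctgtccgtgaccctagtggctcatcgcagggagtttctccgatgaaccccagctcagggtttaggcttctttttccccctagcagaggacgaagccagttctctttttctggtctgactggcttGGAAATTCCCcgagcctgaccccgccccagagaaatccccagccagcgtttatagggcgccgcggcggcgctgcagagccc

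For TNIP1 (chr5:151081057-151081086, minus strand), NFKB1 (chr4:102501300-102501329, plus strand), NFKB2 (chr10:102394461-102394490, plus strand) and NFKBIB (chr19:38899931-38899960, plus strand), 30 bases around the first match of 1 start site are shown to set the motifs side by side. In NFKB2 and NFKBIB 2 matches overlap by all but 1 base, and the capitals cover both. RELA had 2 entries and no match in either window.
TNIP1: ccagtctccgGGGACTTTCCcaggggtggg
NFKB1: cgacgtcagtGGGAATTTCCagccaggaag
NFKB2: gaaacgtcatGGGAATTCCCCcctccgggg
NFKBIB: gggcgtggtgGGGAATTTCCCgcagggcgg

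TNFAIP3 transcript was counted in both KO libraries and in neither WT library. The counts were 64 and 56 in KO replicates 1 and 2, against 0 and 0 in the WT libraries. The groups do not overlap, and this is the pattern by which the gene was chosen. In CPM the level was 5.78 and 3.29 in the KO libraries, a mean of 4.54 ± 1.76 (SD, n = 2), against 0 in both WT libraries. A count of 0 allows up to 0.231 CPM in WT replicate 1 and 0.246 CPM in WT replicate 2. Set against a floor of 3 counts over the WT group, the KO mean was at least 38.1-fold higher. That bound was 48.6-fold with KO replicate 1 alone and 27.6-fold with KO replicate 2 alone. Such floors, and Poisson intervals on counts, cover counting error only. The level is of bulk RNA, in which more cells with the transcript and more transcript per cell cannot be told apart.

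The KO libraries also differed from each other in TNFAIP3. The exact Poisson 95% intervals were 4.45 to 7.38 CPM in KO replicate 1 and 2.48 to 4.27 CPM in KO replicate 2, and they do not overlap. The deposited RPKM, which divide by gene length as well, were 0.419 and 0.237 in the KO libraries and 0 in both WT libraries. They follow the counts and are not a second measurement. Among the 1331 genes at 0 in both WT libraries and above 0 in KO, TNFAIP3 had rank 4 by its summed CPM.

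A20 is abundant in lymphocytes, so markers of leukocytes were read beside it. Of 17 leukocyte markers in the table, 10 were at 0 in all 4 libraries, among them PTPRC, CD3E, MS4A1 and LYZ. The other 7 were detected, and ITGAX and CORO1A made up most of the sum. ITGAX had 18 and 3 counts in the KO libraries, against 19 and 18 in the WT libraries. In CPM its KO replicate 1 (1.63) lay above both WT libraries (1.46 and 1.47). CORO1A had 11 and 4 counts in the KO libraries, against 14 and 9 in the WT libraries. The summed level of the list was 2.80 and 0.528 CPM in the KO libraries, against 3.78 and 2.70 CPM in the WT libraries. The KO library with more TNFAIP3 had the higher sum of the KO libraries, and WT replicate 1 had a higher sum than either. The part of leukocyte RNA in the TNFAIP3 counts was not tested.

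Of 17 listed genes near TNFAIP3 on chromosome 6q, 12 had a row, and these did not share its pattern. WAKMAR2, a long noncoding RNA gene beside it, had 3 and 3 counts in the KO libraries, against 3 and 5 in the WT libraries. HEBP2, a heme-binding protein gene, had 18.3 and 17.1 CPM in the KO libraries, against 31.1 and 22.8 CPM in the WT libraries (log2 fold change -0.60, SE 0.21; edgeR adjusted p = 0.424). Among the other tested neighbours, REPS1 (0.03), CITED2 (-0.04), IL20RA (0.08) and NHSL1 (0.66) had log2 fold changes with overlapping groups and adjusted p between 0.624 and 0.967. IFNGR1, a subunit of the interferon gamma receptor, had 0 and 17 counts in the KO libraries and 3 and 0 in the WT libraries. PBOV1, ECT2L and ABRACL had at most 5 counts in any library, and IL22RA2 and TXLNB had none.

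The genes whose levels were most like TNFAIP3 over the 4 libraries were KIF16B, PTP4A3, PPAN-P2RY11, DDR2 and LINC00857. Likeness was the Euclidean distance of log2(CPM + 1), which ran from 0.280 for KIF16B to 0.721 for LINC00857. All 5 had 0 counts in both WT libraries, with 54 and 47 counts in the KO libraries for KIF16B, a kinesin, and 60 and 38 for DDR2, a collagen receptor. PPAN-P2RY11 is a readthrough gene that shares sequence with its component genes, so its estimate is uncertain.

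**Figure D1:**
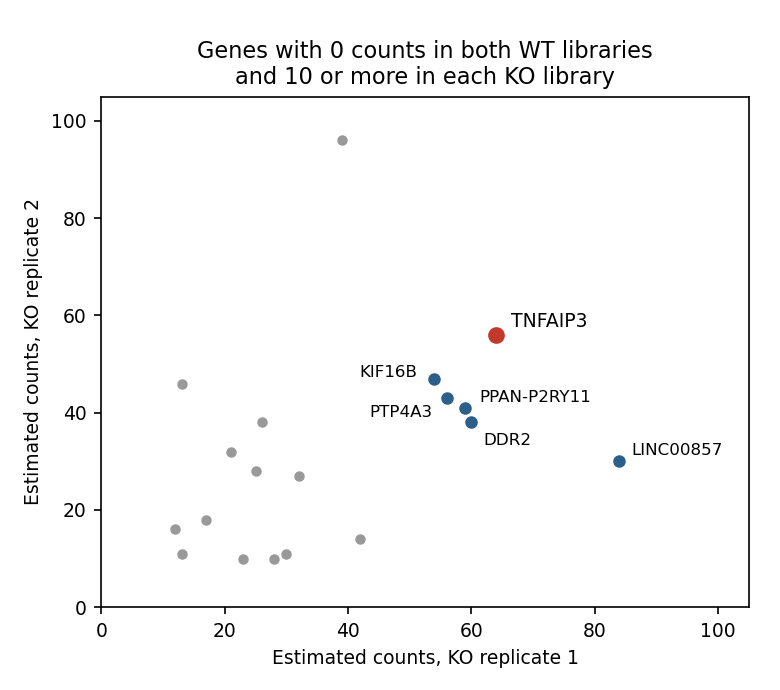
Estimated counts in KO replicate 1 (x axis) and KO replicate 2 (y axis) of the 19 genes with 0 counts in both WT libraries and at least 10 in each KO library. TNFAIP3 (red, 64 and 56 counts) stands beside the 5 genes most like it (blue), and the other genes are grey.

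Zeros beside higher counts were also found within a group, in a small part of the 35820 genes. With a mark of 20 counts, 11 genes, TNFAIP3 among them, had at least that many in both KO libraries and 0 in both WT libraries, and 17 genes showed the reverse. At the same mark 109 genes had 0 in one KO library and at least 20 counts in the other, and 110 genes did so between the WT libraries. The within-group pattern needs a zero in a single library, and that of TNFAIP3 needs it in both WT libraries, so these counts are not alike. The pathway itself held such genes. CD83, a surface protein of activated immune cells and an NF-kappaB target, had 0 and 115 counts in the KO libraries and 233 and 0 in the WT libraries. RIPK1, the kinase on which A20 edits ubiquitin chains, had 45 and 32 counts in the KO libraries, against 46 and 0 in the WT libraries. The part of such estimation in the TNFAIP3 zeros was not tested.

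TNIP1 encodes ABIN1, a ubiquitin-binding protein that brings A20 to its substrates. Its level was 54.8 and 50.1 CPM in the KO libraries, against 68.3 and 60.5 CPM in the WT libraries. The groups do not overlap, with KO the lower, but the log2 fold change of -0.30 did not pass (SE 0.14, 95% interval -0.65 to 0.06; edgeR adjusted p = 0.495).

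**Figure D2:**
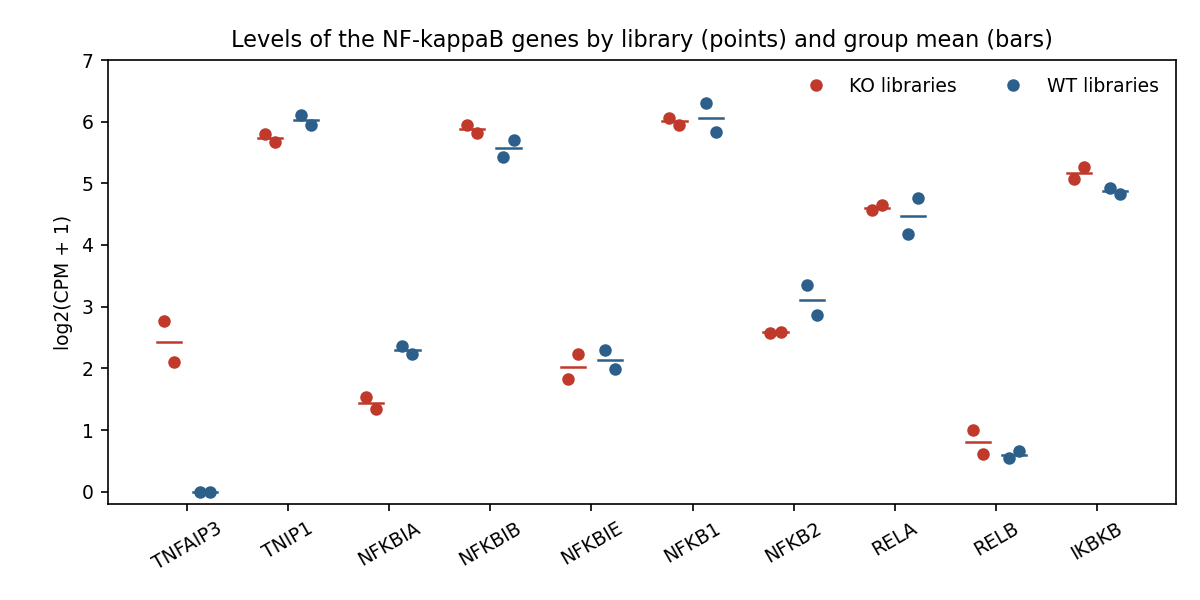
Level of each of the 10 genes on a log2(CPM + 1) axis, with KO libraries (red) left of WT libraries (blue). Points are libraries and bars are the mean of the 2 log values. TNFAIP3 is at 0 in WT. TNIP1, NFKBIA and NFKB2 have both KO points below both WT points, and NFKBIB and IKBKB have both above. Of all tested genes 47% had both KO libraries outside both WT libraries.

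Among the IkB genes, NFKBIA had the lower value in KO and NFKBIB the higher. NFKBIA encodes IkBalpha, the inhibitor that NF-kappaB re-makes soon after its own activation. It had 21 and 26 counts in the KO libraries, against 54 and 45 in the WT libraries. In CPM this was 1.90 and 1.53 in KO, against 4.16 and 3.69 in WT, and the groups do not overlap. The group means were 1.71 ± 0.262 CPM in KO and 3.92 ± 0.336 CPM in WT (SD, n = 2 each). Among the 8 tested genes other than TNFAIP3 this gene had the largest log2 fold change in size, -1.20 (SE 0.37, 95% interval -2.15 to -0.25). It had an unadjusted edgeR p of 0.0230 but did not pass over all genes (edgeR adjusted p = 0.388; DESeq2 adjusted p = 0.694). NFKBIA was the 1 of these 8 genes with an unadjusted p under 0.05, where 11.2% of all tested genes had one (4.97% with KO higher and 6.21% with KO lower).

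NFKBIB encodes IkBbeta, an inhibitor that is degraded more slowly and is not known as a strong NF-kappaB target. It had 60.5 and 55.7 CPM in the KO libraries, against 42.2 and 50.9 CPM in the WT libraries. The groups do not overlap, with KO the higher, at a log2 fold change of 0.32 (SE 0.16, 95% interval -0.08 to 0.72; edgeR adjusted p = 0.502). NFKBIB overlaps SIRT2 on the opposite strand, with no statement of whether counting used strand, so its estimate is uncertain. NFKBIE, the gene of IkBepsilon, had 2.53 and 3.70 CPM in the KO libraries, against 3.93 and 2.95 CPM in the WT libraries, and the groups overlap (log2 fold change -0.14, SE 0.39; edgeR adjusted p = 0.906).

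Among the subunit genes, NFKB1 and RELA had overlapping groups. NFKB1 encodes p105, the precursor of p50, and had 65.8 and 60.6 CPM in the KO libraries, against 77.8 and 55.7 CPM in the WT libraries (log2 fold change -0.08, SE 0.20; edgeR adjusted p = 0.887). RELA encodes p65, the activating partner of p50, and had 22.6 and 24.1 CPM in the KO libraries, against 17.2 and 26.1 CPM in the WT libraries (log2 fold change 0.11, SE 0.25; edgeR adjusted p = 0.879). For both genes the KO values lay between the 2 WT values, and the sign of the fold change turned when WT replicate 1 was left out, to 0.18 for NFKB1 and -0.16 for RELA. The 95% intervals ran from -0.58 to 0.42 for NFKB1 and from -0.52 to 0.74 for RELA, so changes of that size are not excluded.

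The other subunit pair belongs to the non-canonical pathway. NFKB2 encodes p100, which is both the precursor of p52 and an inhibitor of RELB. It had 4.97 and 5.05 CPM in the KO libraries, against 9.17 and 6.31 CPM in the WT libraries. KO was the lower with no overlap, at a log2 fold change of -0.63 (SE 0.31, 95% interval -1.43 to 0.18; edgeR adjusted p = 0.511). Without WT replicate 1 it was -0.33. RELB, its partner, had 11 and 9 counts in the KO libraries, against 6 and 7 in the WT libraries. It did not pass the filter on low counts, and its CPM of 0.994 and 0.528 in KO overlap the 0.462 and 0.573 in WT.

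IKBKB encodes IKKbeta, the kinase that phosphorylates IkBalpha in the canonical pathway. It had 32.4 and 37.6 CPM in the KO libraries, against 29.4 and 27.4 CPM in the WT libraries. KO was the higher with no overlap, at a log2 fold change of 0.30 (SE 0.16, 95% interval -0.11 to 0.71; edgeR adjusted p = 0.522).

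Of the 8 genes, 5 had both KO libraries outside both WT libraries, 2 above and 3 below, where 47% of all tested genes did so (23.5% above and 23.5% below). By edgeR 0 of the 8 passed over all genes, where 0.00815% did. DESeq2, which called 1.38% of 13258 genes, called 0 of the 9 with adjusted p from 0.694 to 0.997. By limma-voom 0 of the 8 passed. The median log2 fold change of the 8 was -0.11, beside -0.01 over all tested genes. It moved with the libraries used, from -0.30 without WT replicate 2 to -0.04 without WT replicate 1 and -0.02 without KO replicate 1, and it was 0.07 with library size alone, where the median of all genes was 0.14.

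**Figure D3:**
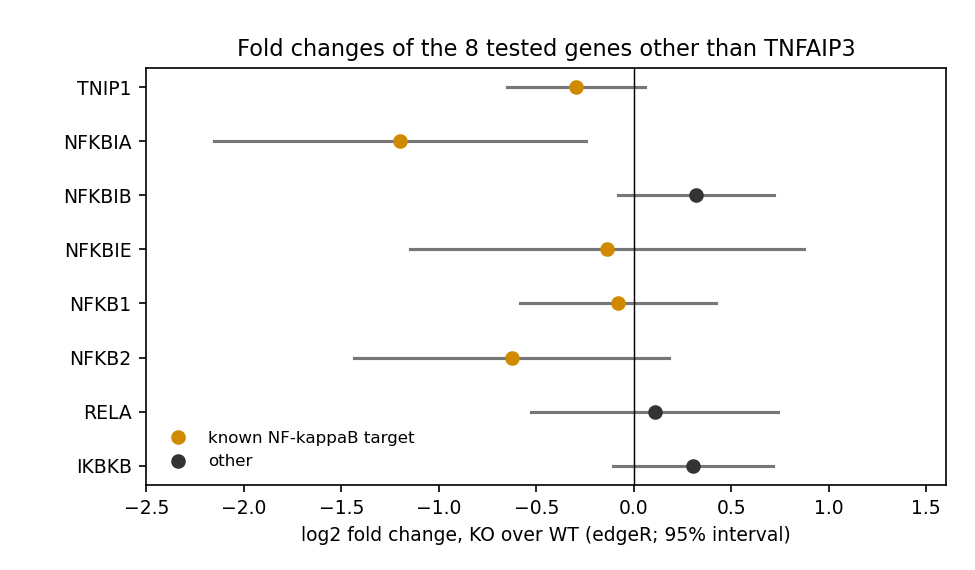
log2 fold change of KO over WT (x axis) with its 95% interval for the 8 tested genes other than TNFAIP3. The 5 known NF-kappaB targets (orange) lie between -1.20 and -0.08 and the 3 others (black) between 0.11 and 0.32, and all intervals except that of NFKBIA include 0. TNFAIP3 and RELB, known targets too, are not drawn. NFKBIE, NFKB1 and RELA changed sides when WT replicate 1 was left out.

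Sorted by what is known of their control, the genes fell on 2 sides. The 5 that are textbook targets of NF-kappaB (TNIP1, NFKBIA, NFKBIE, NFKB1 and NFKB2) had fold changes below 0, with a median of -0.30. The 3 that are not (NFKBIB, RELA and IKBKB) had fold changes above 0, with a median of 0.30. None of these passed on its own, the sort was not tested, and NFKBIE and NFKB1 lay above 0 (0.04 and 0.10) with scaling by library size alone. That scaling moved the median of all genes by 0.16, and relative to it NFKBIE and NFKB1 were at -0.10 and -0.04. The 2 sides also depended on single libraries. Without WT replicate 1, NFKBIE (0.09) and NFKB1 (0.18) lay above 0 and RELA (-0.16) below it, and without KO replicate 1 NFKBIE was at 0.11, so 3 of the 8 genes changed sides. TNFAIP3 and RELB are textbook targets too: TNFAIP3 lay on the other side from the 5, and the untested RELB averaged 0.761 CPM in KO and 0.518 CPM in WT with overlapping groups.

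Levels of different genes can be compared only per length, and the deposited RPKM divide by a length for each gene. The gene lengths they imply ran from 0.375 of the RefSeq span for NFKB2 to 0.919 for NFKBIB. How they were set is not given. The span includes introns, so the order of genes in RPKM cannot be read as an order of mRNA levels. They were 54.2 kb for NFKB1 and 37.5 kb for TNIP1, against 4.70 kb for RELA and 8.48 kb for NFKBIB. The order of genes in RPKM depends on these lengths. In CPM, NFKB1 and TNIP1 lay above RELA in every library. On this RPKM scale NFKBIB (6.92 to 7.56 in KO, 4.27 to 6.23 in WT) and RELA (5.09 to 5.40 in KO, 3.13 to 5.77 in WT) had the highest levels, and their ranges overlap within WT. NFKB2, NFKB1, TNIP1, NFKBIA and IKBKB lay between 0.616 and 2.49 in all 4 libraries. NFKBIE had 0.494 to 0.713 RPKM in KO and 0.562 to 0.620 RPKM in WT, and RELB had 0.0301 to 0.0592 RPKM in KO and 0.0211 to 0.0333 RPKM in WT. On the same scale, with an implied length of 14.6 kb, TNFAIP3 in KO stood between NFKBIE and RELB.

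The rest of the pathway was read from 6 lists of its parts. Of 124 listed genes, 111 had a row, 98 were detected and 78 were tested. TNFSF12, at 0 in both WT libraries, passed the filter on low counts through KO alone and is left out of the counts here, which leaves 77. By edgeR 0 of the 77 passed over all genes (smallest adjusted p 0.276), DESeq2 called 0 and limma-voom called 0. An unadjusted p under 0.05 was found for 12, or 15.6%, with 5 higher and 7 lower in KO, beside 11.2% of all tested genes. Both KO libraries lay outside both WT libraries for 37, or 48.1%, beside 47%. Their median log2 fold change was -0.02.

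**Figure D4:**
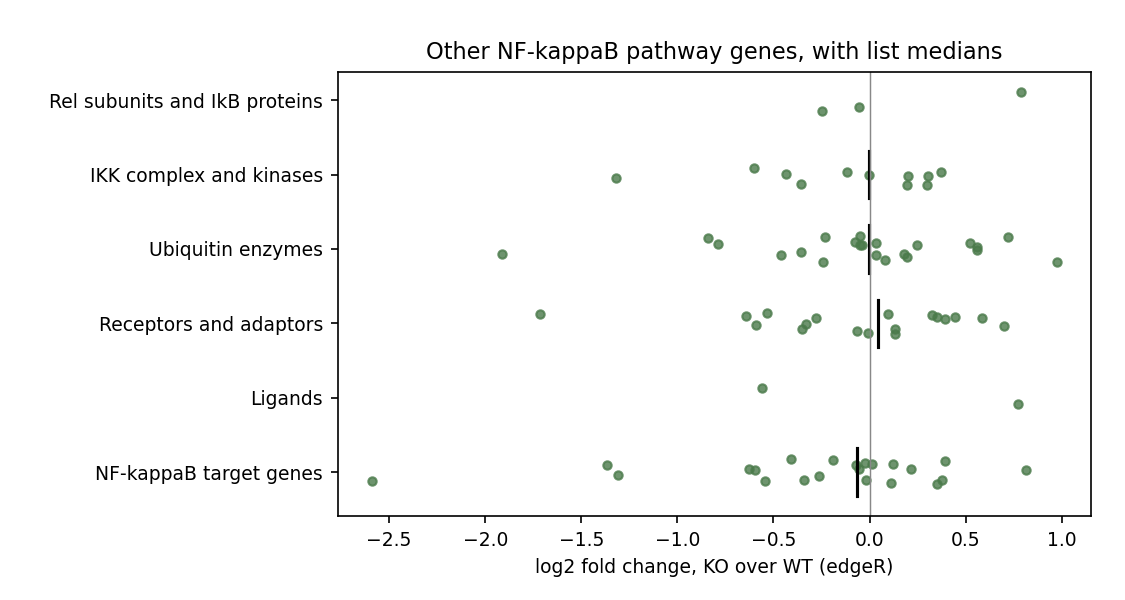
log2 fold change of KO over WT (x axis) of tested pathway genes by list, without TNFSF12, which had 0 counts in WT. Black bars are list medians, drawn for lists of more than 3 genes, and they lie between -0.06 and 0.04. Leaving out 1 library moved them, over -0.28 to 0.10 for the IKK list, -0.09 to 0.07 for the ubiquitin list, -0.25 to 0.22 for the receptors and -0.33 to 0.04 for the targets.

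Close relatives of the 10 genes gave little more. The list of other Rel and IkB genes had 3 tested members of 4, with 0 at an unadjusted p under 0.05. NFKBIZ, a nuclear IkB, had 15.4 and 17.0 CPM in the KO libraries, against 15.95 and 17.7 CPM in the WT libraries. NFKBID had 7.41 and 5.64 CPM in the KO libraries, against 4.08 and 3.44 CPM in the WT libraries (log2 fold change 0.79, SE 0.32; edgeR adjusted p = 0.463). REL, the gene of c-Rel, had 12 counts in KO replicate 1 and 0 in the other 3 libraries.

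Of 11 tested genes of the IKK complex and its upstream kinases, 1 had an unadjusted p under 0.05, beside 11.2% of all tested genes. This was TAB3, an adaptor of the kinase TAK1, with 7.86 and 18.03 CPM in the KO libraries, against 35.9 and 29.2 CPM in the WT libraries (log2 fold change -1.32, SE 0.41; edgeR adjusted p = 0.389). CHUK, which encodes IKKalpha, had 20.3 and 20.7 CPM in the KO libraries, against 15.6 and 16.1 CPM in the WT libraries (log2 fold change 0.37, SE 0.17; edgeR adjusted p = 0.488). With IKBKB, both catalytic IKK genes thus had KO values above WT, neither past the threshold. Across all tested genes 23.5% had both KO libraries above both WT libraries. Of the 11 genes in this list, 2 had both KO libraries above both WT libraries and 3 had both below, MAP3K7 and MAP3K8 among the latter. IKBKG, the regulatory subunit, had 3.98 and 10.1 CPM in the KO libraries around 6.09 and 6.31 CPM in the WT libraries.

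Among 22 tested ubiquitin enzymes and their adaptors, 3 had an unadjusted p under 0.05, 1 higher and 2 lower, beside 11.2% of all tested genes. BIRC2, the cIAP1 ubiquitin ligase of the TNF receptor complex, had 13.5 and 16.6 CPM in the KO libraries, against 26.1 and 27.9 CPM in the WT libraries (log2 fold change -0.84, SE 0.19; edgeR adjusted p = 0.298). SPATA2, which links the deubiquitinase CYLD to that complex, had 0.904 and 3.64 CPM in the KO libraries, against 9.17 and 8.43 CPM in the WT libraries (log2 fold change -1.91, SE 0.64; edgeR adjusted p = 0.411). TRAF5, a TNF receptor adaptor, had 17.3 and 31.3 CPM in the KO libraries, against 11.8 and 13.02 CPM in the WT libraries (log2 fold change 0.98, SE 0.32; edgeR adjusted p = 0.410). In TRAF5 and SPATA2 the KO libraries differed from each other by more than the WT libraries did. CYLD had 50.3 and 57.5 CPM in the KO libraries, against 45.3 and 45.8 CPM in the WT libraries, and the A20 partners TAX1BP1 and RNF11 had adjusted p of 0.609 and 0.460. TNIP3 and BIRC3 were at 0 in all 4 libraries.

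Of 18 tested receptors and adaptors, 4 had an unadjusted p under 0.05, 3 higher and 1 lower, beside 11.2% of all tested genes. CARD10, a scaffold that carries signals to IKK in epithelial cells, had 84.9 and 80.1 CPM in the KO libraries, against 52.3 and 57.5 CPM in the WT libraries (log2 fold change 0.59, SE 0.13; adjusted p = 0.276 by edgeR and 0.116 by DESeq2). The lymphotoxin receptor LTBR (0.39), the TRAIL receptor TNFRSF10B (0.35) and the interleukin 1 receptor subunit IL1RAP (-0.64) had edgeR adjusted p of 0.444, 0.395 and 0.441. TNFRSF1A, the main TNF receptor, had 7.32 and 7.57 CPM in the KO libraries, against 11.9 and 7.04 CPM in the WT libraries, and the groups overlap. MYD88 was listed at 0 in all 4 libraries.

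Of 10 ligand genes with a row, 2 were tested apart from TNFSF12, and 0 of them had an unadjusted p under 0.05. TNFSF12, the gene of TWEAK, a TNF family ligand, had 8 and 44 counts in the KO libraries, against 0 and 0 in the WT libraries, so its KO mean was at least 13.9-fold higher against the same floor of 3 counts over the WT group. That bound was 6.07-fold with KO replicate 1 alone and 21.7-fold with KO replicate 2 alone. The gene shares sequence with a readthrough transcript, so its estimate is uncertain.

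NF-kappaB target genes outside the 10 had 22 tested members with a median log2 fold change of -0.06, 14 below 0 and 8 above. That is 63.6% below 0, beside 51.5% of all tested genes. The median was -0.33 without KO replicate 1, 0.04 without KO replicate 2, -0.17 without WT replicate 2 and 0.09 with library size alone. An unadjusted p under 0.05 was found for 4 of them, 1 higher and 3 lower, beside 11.2% of all tested genes. IER3, an early response gene that affects cell survival, had 24.2 and 26.3 CPM in the KO libraries, against 35.4 and 41.0 CPM in the WT libraries (log2 fold change -0.60, SE 0.16; edgeR adjusted p = 0.353). TNFAIP8 (-0.41) and TNFAIP2 (-0.63) were the other 2 with lower values, at edgeR adjusted p of 0.410 and 0.432. CFLAR, which encodes the caspase-8 inhibitor cFLIP, had 76.7 and 68.3 CPM in the KO libraries, against 54.2 and 57.5 CPM in the WT libraries (log2 fold change 0.38, SE 0.13; edgeR adjusted p = 0.420). Of 36 target genes with a row, 6 had no counts in any library: ICAM1, VCAM1, CXCL2, BCL2A1, BIRC3 and TNFRSF9. CXCL8, the chemokine IL-8, had 4 and 3 counts in the KO libraries and 2 and 7 in the WT libraries, too few to test. IL32 had 0 and 0 counts in the KO libraries, against 11 and 10 in the WT libraries. It did not pass the filter on low counts, and DESeq2 did not call it (adjusted p = 0.322).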

How the data were processed

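RNA from 2 KO and 2 WT libraries of HCT116 was sequenced as ribosomal-RNA-depleted, stranded libraries in pairs of 150 bp reads, per the labels' protocols. The authors deposited estimated counts per gene, rounded to whole numbers, and a second table of RPKM, which equal those counts over gene length and library total. Per the submitters' processing notes Salmon 1.10.1 and the build hg19 were used, while the annotation behind the gene totals is not stated. An estimated count can fall to 0 because shared reads are divided between genes.

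Counts were tested with edgeR 4.0.16 (quasi-likelihood, TMM, filterByExpr, genotype alone) in R 4.3.3, with Benjamini-Hochberg adjustment over all tested genes and a threshold of 0.05. CPM use the library size of tested genes times the TMM factor. DESeq2 1.42.0, limma-voom (limma 3.58.1), RLE scaling, library size alone, no filter, a replicate block, log2(RPKM + 0.1) and log2(RPKM + 1), removal of the 3 most abundant small RNAs (RN7SK, SNORD3A and RMRP) and leaving out each library were alternatives. P-values measure the spread between these libraries, which may be technical, and an exact permutation test of 2 against 2 cannot go below a two-sided p of 0.333.

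The genes and lists were chosen with earlier results of these data known. Named genes are the 10, pathway genes with an unadjusted p under 0.05 (at most 6 a list), detected neighbours of TNFAIP3 and the 5 genes nearest to it. Others (such as REL, CD83, RIPK1 and IL32) were chosen after their values were seen. Coordinates belong to the RefSeq promoter table only.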

Additional observations from a re-analysis of the deposited data

How the results depend on the processing

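The count of genes that passed was 1 by edgeR. It was 183 by DESeq2, 34 with no filter on low counts and 42 with library size alone, a scaling chosen after seeing the data. Leaving out 1 library gave between 0 and 575: 575 without WT replicate 2, 3 without WT replicate 1 and 0 without either KO library, where the lone sample of a group is assumed to vary like the other group. It was also 1 with RLE scaling, by limma-voom and without the 3 small RNAs. The genes other than TNFAIP3 gave 0 calls in each of these settings that used all 4 libraries. That was 0 of 9 by DESeq2 and with no filter, and 0 of 8 in the others, where RELB did not pass the filter. Pathway genes gave 0 calls except without WT replicate 2 (range 0 to 2), when IRAK1 (log2 fold change -0.97, adjusted p = 0.0233) and UBE2N (-0.58, adjusted p = 0.0333) passed; the cause was not tested. Of 104 alternative fold changes of the 8 tested genes, 94 kept their direction, 10 turned and none passed (adjusted p 0.209 to 0.997). NFKBIE was 0.039 with library size alone, 0.0091 on log2(RPKM + 0.1) and 0.0080 on log2(RPKM + 1), and -0.44 to 0.11 over the libraries left out. NFKB1 was 0.10, 0.095 and 0.055 in those settings and -0.29 to 0.18 over the libraries left out, and RELA was -0.16 to 0.45. The cause was not tested. NFKBIA kept its direction, at -1.35 to -0.53 over all settings. NFKB2 was -0.86 to -0.33 over the libraries left out. The mean TNFAIP3 level in KO was 4.80 CPM without the TMM factor and 3.29 to 5.78 CPM with 1 KO library.

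Same-numbered libraries did not deviate together (Pearson's r of their deviations across genes 0.058), so the numbers were not taken as pairs. With the replicate block edgeR called 1 gene, 0 of the 8 tested genes other than TNFAIP3 and 0 pathway genes. NFKBIA then had a log2 fold change of -1.20 (edgeR adjusted p = 0.458). Low counts limit RELB, NFKBIA, NFKBIE and TNFAIP3 most.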
